A study of Mus musculus with 4 samples.

Results

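Ccl2, Ccl7, Ccl8, Ccl9, Ccl5 and Ccl17 encode CC chemokines that attract monocytes and lymphocytes. These 6 genes were taken by name from a deposited table that covers 23005 genes and unnamed transcripts, and each had 1 transcript entry. The table holds RPKM, the reads of a transcript scaled to its length and to the library's total, from RNA sequencing of mouse embryonic fibroblasts (MEFs). The libraries were cells labelled Mll1-/- given TNF (tumour necrosis factor alpha) for 4 hr at 10 ng/ml, cells labelled Mll1-/- given control solution, Mll1+/+ (wild-type) cells given the same TNF, and Mll1+/+ cells given control solution, all grown in DMEM with serum. Each group is 1 library, made from the mixed cells of 3 separate treatments, so there is no spread between replicates and no test between conditions. The labels give no number of embryos or lines, so genotype and cell line cannot be told apart.

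CC chemokines are small secreted proteins that bind heparan sulphate on cell surfaces and act on G-protein-coupled receptors of leukocytes. TNF induces several of them in fibroblasts through NF-kB, which is the route by which stromal cells call monocytes into inflamed tissue. Mll1, now named Kmt2a, is a histone H3 lysine 4 methyltransferase, a mark of active promoters, and the study asked how it bears on transcription induced by TNF.

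The read totals behind the RPKM, recovered from the values, were 19306506 (labelled Mll1-/- with TNF), 20081869 (labelled Mll1-/-, control), 27977248 (wild type with TNF) and 27728647 (wild type, control). Reads summed over all entries came to 1.67 to 1.77 times these totals. Kmt2a itself stood at 1.66 RPKM with TNF and 2.02 RPKM in control in the libraries labelled Mll1-/-, against 2.11 and 1.85 RPKM in wild type. Reads over the whole transcript therefore do not separate the genotypes, the labels do not describe the allele, and the label is used below as given, for every direction drawn from it. Of 10 fibroblast markers 8 had an entry, with a summed level of 2419 to 2953 RPKM, most of it from Vim (2097 to 2418 RPKM), which many other cell types express too. In the wild-type libraries Dcn was listed at 0, and Col3a1 (0.296 RPKM with TNF and 0.532 RPKM in control) and Pdgfra (0.267 and 0.220 RPKM) were below 1 RPKM. Of these 8 markers 6 were higher in cells labelled Mll1-/- by the 2-fold rule used below, with TNF and in control alike. By the same rule 6.71% of all genes compared below were higher with TNF and 7.11% in control. Of 11 macrophage and monocyte markers 6 had an entry, and Cd14 (9.28 to 25.6 RPKM) made up most of their sum, with Lyz2 at 0.245 RPKM or less and Csf1r at 0.0745 RPKM or less. Summed markers of dendritic cells (2 of 7 with an entry), lymphocytes (5 of 7), endothelium (4 of 5) and epithelium (4 of 5) lay between 0.172 and 3.91 RPKM.

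Ccl2 and Ccl7 made up nearly all of the transcript level of the 6 chemokines. Their summed RPKM was 915 in cells labelled Mll1-/- with TNF and 321 in the same cells in control, against 2005 in wild type with TNF and 543 in wild-type control. Ccl2 and Ccl7 together held 97.9% and 96.8% of these sums in cells labelled Mll1-/- and 99.1% and 98.0% in wild type, each time with TNF first. Ccl9 came next at 9.34 to 17.5 RPKM. Ccl17, Ccl8 and Ccl5 were near the limit of detection. The order of these low genes was Ccl17, Ccl5 and Ccl8 in both libraries labelled Mll1-/-, Ccl17, Ccl8 and Ccl5 in wild type with TNF, and Ccl8, Ccl17 and Ccl5 in wild-type control. Of the 6 members 4 reached 1 RPKM in at least 1 library and entered the comparison across 14386 genes, and Ccl8 and Ccl5 did not. Ccl17 reached it only in the library labelled Mll1-/- with TNF. Of the 14386, called genes here, 11115 had a symbol and the rest were transcript entries without one.

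**Figure D1:**
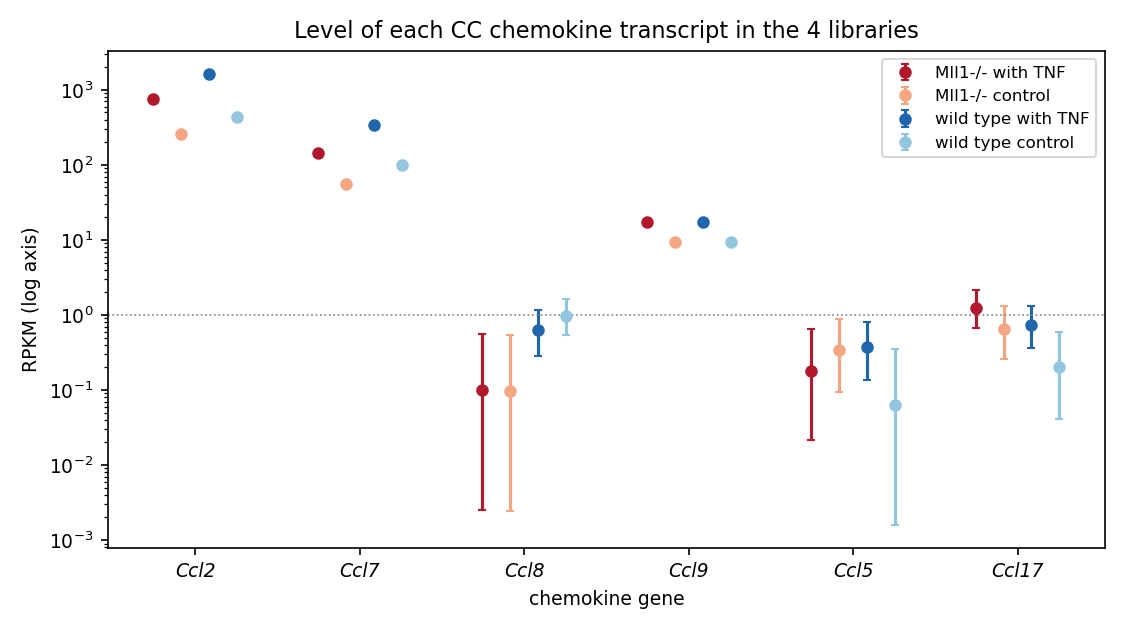
RPKM on a log axis of the 6 chemokine transcripts in each library, with 95% Poisson counting intervals of the reads; the dotted line marks 1 RPKM. Ccl2 and Ccl7 were higher with TNF and higher in wild type, Ccl9 was at 17.5 and 17.3 RPKM with TNF in the 2 genotypes, and the intervals of Ccl8, Ccl5 and Ccl17 were wide.

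Ccl2, also called monocyte chemoattractant protein 1, is the main ligand of Ccr2 and draws monocytes out of the bone marrow and into tissue. It stood at 752 RPKM in cells labelled Mll1-/- with TNF and 255 RPKM in their control, against 1643 RPKM in wild type with TNF and 434 RPKM in wild-type control. The wild-type library with TNF was the highest and the control labelled Mll1-/- the lowest. These levels rest on 11705, 4134, 37059 and 9695 reads in that order. Among the 14386 compared genes Ccl2 ranked 355 and 728 by level in cells labelled Mll1-/- with TNF and in control, and 127 and 627 in wild type. As in any bulk sample, a smaller share of expressing cells and less RNA per cell cannot be told apart.

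Ccl7, or monocyte chemoattractant protein 3, acts on Ccr2 as well as on other CC receptors and recruits monocytes alongside Ccl2. Its level was 144 RPKM in cells labelled Mll1-/- with TNF and 55.4 RPKM in their control, against 343 RPKM in wild type with TNF and 98.8 RPKM in wild-type control. The libraries fell in the same order as for Ccl2, on 2536, 1014, 8748 and 2499 reads. Set against Ccl2, Ccl7 had 19.2% of the Ccl2 RPKM in cells labelled Mll1-/- with TNF (counting interval 18.3 to 19.99) and 21.7% in their control (20.2 to 23.2). In wild type it had 20.9% with TNF (20.4 to 21.4) and 22.8% in control (21.8 to 23.8). The Ccl7 share was thus lower with TNF in both genotypes, and within neither genotype did the counting intervals overlap.

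TNF gave higher Ccl2 and Ccl7 in both genotypes, by more than a 2-fold ratio. For Ccl2 the ratio of TNF to control was 2.95 in cells labelled Mll1-/- (counting interval 2.84 to 3.05, log2 1.56) and 3.79 in wild type (3.71 to 3.88, log2 1.92). For Ccl7 it was 2.60 in cells labelled Mll1-/- (2.42 to 2.80, log2 1.37) and 3.47 in wild type (3.32 to 3.63, log2 1.79). Counted from the top of all log2 TNF ratios, Ccl2 ranked 31 in cells labelled Mll1-/- and 15 in wild type, and Ccl7 ranked 42 and 19. A log2 ratio of 1 or more on the scale of log2(RPKM + 0.5) is called past the size rule here. Of the 4 compared members, 2 were higher by this rule and 0 lower in each genotype. Among all compared genes 0.688% were higher and 0.16% lower with TNF in cells labelled Mll1-/-, and 0.521% were higher and 0.0556% lower in wild type. The median log2 TNF ratio of all genes was 0.02 in cells labelled Mll1-/- and -0.02 in wild type. For genes as short as Ccl2 and Ccl7 (length decile 2, counted from the shortest) the median was 0.22 and -0.04. With the trend with transcript length removed, Ccl2 had log2 1.35 in cells labelled Mll1-/- and 1.97 in wild type. Ccl7 then had 1.18 and 1.83.

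**Figure D2:**
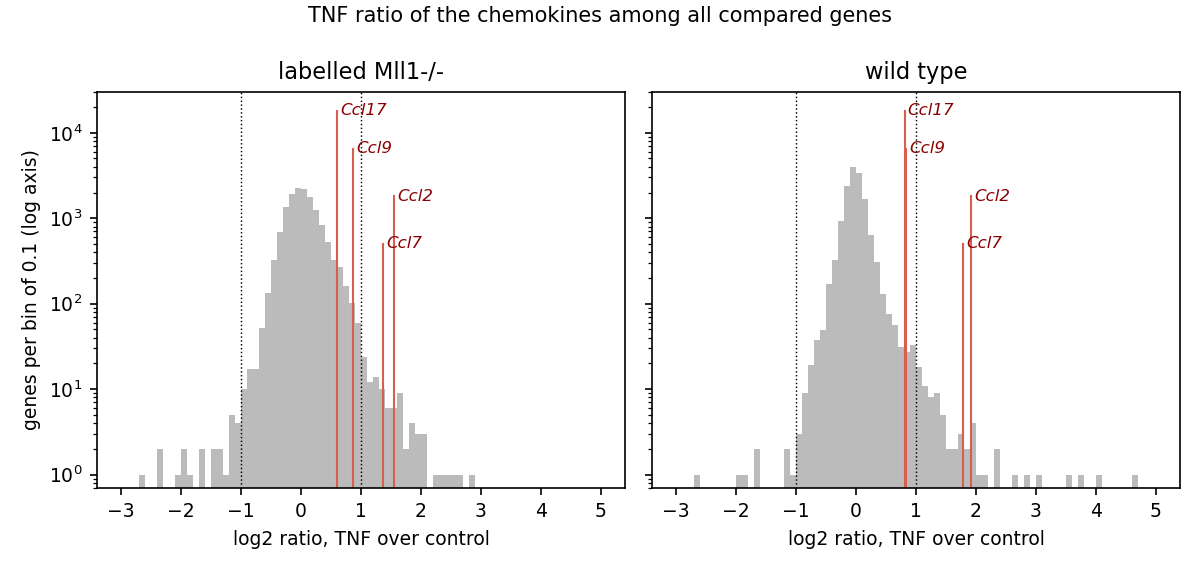
Number of genes (log axis) by log2 ratio of TNF over control for 14386 compared genes, in cells labelled Mll1-/- (left) and wild type (right), with dotted lines at -1 and 1. Red lines mark the 4 compared chemokines, of which Ccl2 (1.56 and 1.92) and Ccl7 (1.37 and 1.79) lie beyond 1 in both panels.

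Ccl9, also known as macrophage inflammatory protein 1 gamma, acts on Ccr1 and attracts myeloid cells. It was at 17.5 RPKM in cells labelled Mll1-/- with TNF and 9.34 RPKM in their control, against 17.3 RPKM in wild type with TNF and 9.48 RPKM in wild-type control. Both TNF libraries lay above both controls, and the genotypes lay within their counting intervals of each other. The TNF ratio was 1.87 in cells labelled Mll1-/- (counting interval 1.69 to 2.08, log2 0.87) and 1.82 in wild type (1.67 to 1.99, log2 0.83). Ccl9 was thus below the size rule while ranking 177 and 130 of all genes from the top. Of the 25-base stretches in its annotated transcripts 317 of 3021 also occur in transcripts of other genes, as do 33 of 934 for Ccl5. Ccl2, Ccl7, Ccl8 and Ccl17 had 0 such stretches, so no sharing of reads among these chemokines was found at that length.

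Upstream windows in the RefSeq table on GRCm38.p6 were matched for Ccl9, Ccl8 and Ccl17, that is for 3 of the 6 members. These windows are shown because no other member had one, so Ccl2, Ccl7 and Ccl5 could not be examined. Each sequence is the 250 bases before the annotated start site, 5′ to 3′ on the gene's strand, and capitals mark matches on either strand to the motifs given after it. The Ccl9 window is chr11:83578637-83578886 on the minus strand, the Ccl8 window is chr11:82114935-82115184 on the plus strand, and the Ccl17 window is chr8:94810203-94810452 on the plus strand.
Ccl9: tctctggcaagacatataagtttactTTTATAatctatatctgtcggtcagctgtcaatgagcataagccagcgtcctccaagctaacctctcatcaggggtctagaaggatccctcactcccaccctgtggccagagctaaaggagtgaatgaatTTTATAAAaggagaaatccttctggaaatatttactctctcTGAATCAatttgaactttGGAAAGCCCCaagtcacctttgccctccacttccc
Ccl8: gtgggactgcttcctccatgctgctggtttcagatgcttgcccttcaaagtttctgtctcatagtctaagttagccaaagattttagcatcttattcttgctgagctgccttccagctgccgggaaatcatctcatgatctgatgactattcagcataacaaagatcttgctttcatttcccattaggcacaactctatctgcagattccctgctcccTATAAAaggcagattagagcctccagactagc
Ccl17: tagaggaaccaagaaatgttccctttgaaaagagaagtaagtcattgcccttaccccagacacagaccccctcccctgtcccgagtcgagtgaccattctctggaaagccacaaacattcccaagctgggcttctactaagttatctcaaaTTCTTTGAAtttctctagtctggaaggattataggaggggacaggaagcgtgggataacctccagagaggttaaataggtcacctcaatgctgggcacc

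The Ccl9 window held a match to the kB consensus, the element bound by NF-kB, from position -35 to position -26 counted back from the start site. It held an AP-1 match (TGANTCA) from -53 to -47 and 3 matches to TATAAA, of which 2 overlap each other. The Ccl8 window held a TATAAA from -32 to -27. The Ccl17 window held a match to the STAT spelling TTCNNNGAA from -99 to -91. Over 32536 distinct upstream windows of the same length, 7.28% held the kB consensus, 6.73% held TGANTCA, 7.04% held TTCNNNGAA and 12.3% held TATAAA. The matches describe the letters of these windows, and binding was not measured.

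Ccl17 is a ligand of Ccr4 and attracts T cells, and it is known mainly as a product of dendritic cells. It had 1.24 RPKM (13 reads) in cells labelled Mll1-/- with TNF and 0.644 RPKM (7 reads) in their control, against 0.727 RPKM (11 reads) in wild type with TNF and 0.200 RPKM (3 reads) in wild-type control. The TNF library was the higher of the pair in both genotypes, but the counting intervals of the ratios included 1. The ratio was 1.93 in cells labelled Mll1-/- (0.716 to 5.72) and 3.63 in wild type (0.960 to 20.3). Cd74, 1 of the 2 dendritic cell markers with an entry, was also higher with TNF, at 1.13 and 0.322 RPKM with TNF and in control in cells labelled Mll1-/- and 1.47 and 0.466 RPKM in wild type. The other, Zbtb46, was at 0.744 and 0.966 RPKM in cells labelled Mll1-/- and 2.44 and 2.65 RPKM in wild type. Their part in the Ccl17 values was not tested.

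Ccl5, or RANTES, attracts T cells and monocytes, in part through Ccr1 and Ccr3. It had 0.179 RPKM (2 reads) in cells labelled Mll1-/- with TNF and 0.344 RPKM (4 reads) in their control, against 0.370 RPKM (6 reads) in wild type with TNF and 0.0623 RPKM (1 read) in wild-type control. Its TNF ratios of 0.520 in cells labelled Mll1-/- (counting interval 0.0471 to 3.63) and 5.95 in wild type (0.722 to 274) lay on opposite sides of 1, and both intervals included 1. At this depth no TNF difference in Ccl5 was detectable in either genotype.

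Ccl8, or monocyte chemoattractant protein 2, acts in the mouse mainly on Ccr8. It had 0.1002 RPKM (1 read) in cells labelled Mll1-/- with TNF and 0.0963 RPKM (1 read) in their control, against 0.622 RPKM (9 reads) in wild type with TNF and 0.977 RPKM (14 reads) in wild-type control. Both wild-type libraries lay above both libraries labelled Mll1-/-. The TNF ratio was 1.04 in cells labelled Mll1-/- (counting interval 0.0133 to 81.7) and 0.637 in wild type (0.243 to 1.58), so neither interval excluded 1.

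**Figure D3:**
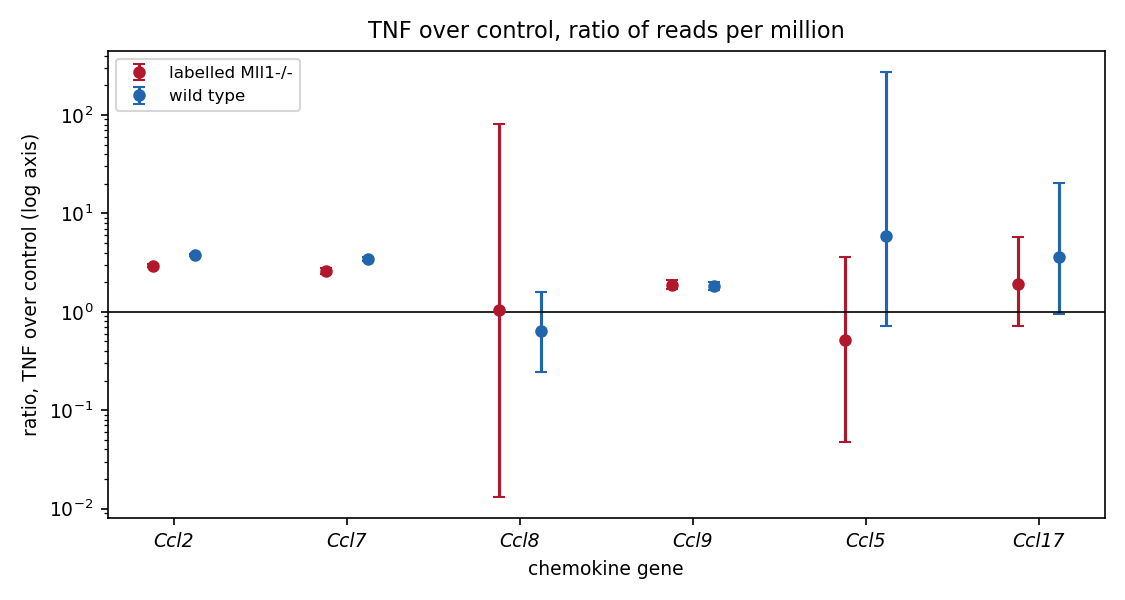
Ratio of reads scaled to library totals, TNF over control, for each chemokine on a log axis, in cells labelled Mll1-/- (red) and wild type (blue), with 95% Clopper-Pearson counting intervals. Ccl2 (2.95 and 3.79) and Ccl7 (2.60 and 3.47) had narrow intervals and the smaller ratio in cells labelled Mll1-/-, whereas the intervals of Ccl8, Ccl5 and Ccl17 included 1 in both.

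The TNF ratio of Ccl2 and of Ccl7 was smaller in cells labelled Mll1-/- than in wild type. For Ccl2 the ratio of ratios was 0.777 (counting interval 0.746 to 0.811), a log2 difference of -0.36. For Ccl7 it was 0.750 (0.689 to 0.817), a log2 difference of -0.42. The gain in level was 497 RPKM in cells labelled Mll1-/- and 1209.6 RPKM in wild type for Ccl2, and 88.7 and 244 RPKM for Ccl7. For Ccl9 the ratio of ratios was 1.03 (0.900 to 1.18) and the gains were 8.16 and 7.77 RPKM. For Ccl17 it was 0.532 (0.110 to 2.56), which sets no direction. None of the 4 compared members passed the size rule for the difference in either direction, where 0.758% of all genes were higher and 0.424% lower. The middle 95% of all genes ran from -0.58 to 0.77, and the value lay below that of Ccl2 in 8.34% of genes and below that of Ccl7 in 5.93%. The size of this difference depends on a trend with transcript length that involves the control labelled Mll1-/-. The Ccl2 and Ccl7 entries (806 and 912 bases) are in length decile 2, counted from the shortest, whose genes had a median difference of 0.24. With the trend removed the differences were -0.61 for Ccl2 and -0.66 for Ccl7. When library scaling ignored the 20 genes of highest mean RPKM they were -0.55 and -0.61. The middle 95% above was taken without these changes, so it cannot be set against these values. Other genes moved as well. Over all genes 109 higher and 61 lower by the size rule became 36 and 145 without the trend, and 62 and 103 without the 20 genes.

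Between genotypes, Ccl2 and Ccl7 were lower in cells labelled Mll1-/- both with TNF and in control solution. With TNF, Ccl2 in cells labelled Mll1-/- was 0.458 of the wild-type level (counting interval 0.448 to 0.467, log2 -1.13) and Ccl7 was 0.420 of it (0.402 to 0.439, log2 -1.25). In control solution Ccl2 was 0.589 of the wild-type level (0.568 to 0.611, log2 -0.76) and Ccl7 was 0.560 of it (0.520 to 0.603, log2 -0.83). With TNF 2 of the 4 compared members were therefore lower by the size rule and 0 higher, and in control solution 0 were lower and 0 higher. Among all compared genes 4.5% were lower and 6.71% higher in cells labelled Mll1-/- with TNF, and 7.99% were lower and 7.11% higher in control solution. The median log2 ratio of all genes was -0.05 with TNF and -0.07 in control solution. Of the 8 fibroblast markers with an entry 6 were higher in cells labelled Mll1-/- in both comparisons, and their part in these values was not tested. Cd14, listed here as a monocyte marker, was lower in cells labelled Mll1-/- as well (11.9 RPKM with TNF and 9.28 RPKM in control, against 25.6 and 23.3 RPKM in wild type), and its part in these values was not tested. With the length trend removed the values with TNF were still past -1 (-1.01 for Ccl2 and -1.10 for Ccl7), while those in control solution were -0.37 and -0.43, or -0.46 and -0.53 without the 20 genes of highest mean RPKM in the scaling.

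Ccl9 did not share that difference, at 1.01 of the wild-type level with TNF (counting interval 0.935 to 1.099) and 0.985 of it in control solution (0.882 to 1.098). Ccl17 went the other way in value, at 1.71 with TNF (0.708 to 4.22) and 3.22 in control (0.736 to 19.3), with intervals that included 1. Its level reached 1 RPKM only in the library labelled Mll1-/- with TNF, so the filter itself favours a higher value there. Ccl8 was at 0.161 of the wild-type level with TNF (0.00367 to 1.16) and 0.0986 in control (0.00233 to 0.648), so for the control pair, which holds 1 and 14 reads, the interval lay below 1. Ccl5 was at 0.483 with TNF (0.0477 to 2.70) and 5.52 in control (0.547 to 272). The comparison with TNF shares its libraries with the TNF ratios above, so these values describe the same 4 numbers a gene from another side.

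**Figure D4:**
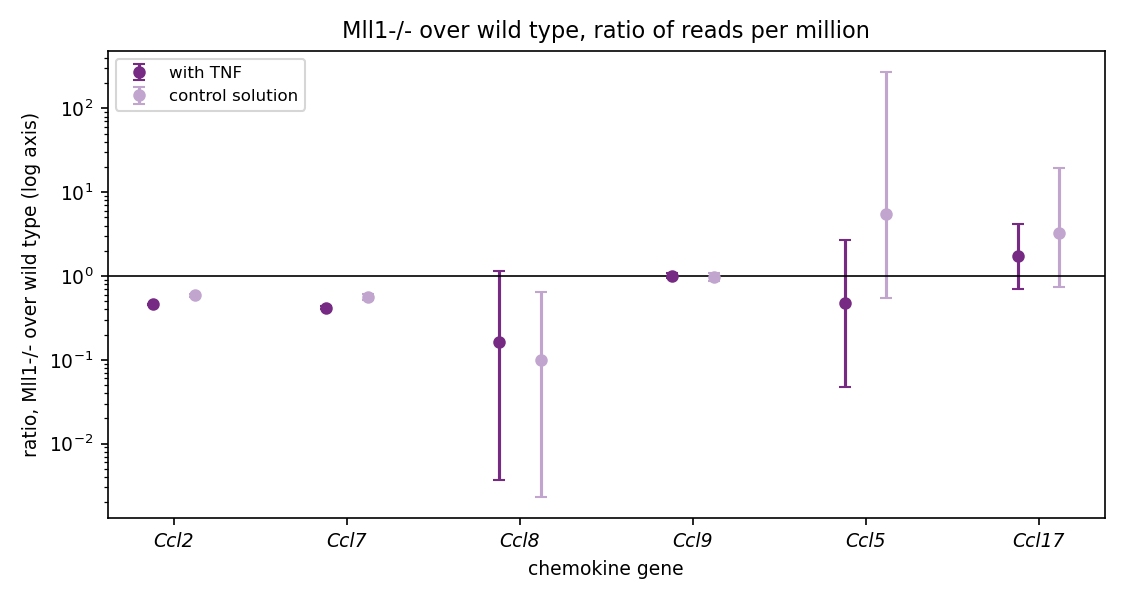
Ratio of reads scaled to library totals, cells labelled Mll1-/- over wild type, for each chemokine on a log axis, with TNF (dark) and in control solution (light), with 95% Clopper-Pearson counting intervals. Ccl2 (0.458 and 0.589) and Ccl7 (0.420 and 0.560) lie below 1, and Ccl9 (1.01 and 0.985) lies at 1.

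The members sit in chemokine gene clusters in which most other chemokine genes had few reads. On chromosome 11 the order in the RefSeq annotation is Ccl2, Ccl7, Ccl11, Ccl12, Ccl8 and Ccl1, followed further along by Ccl5, Ccl9, Ccl6, Ccl3 and Ccl4. Ccl11, an eosinophil attractant that lies next to Ccl7, was at 0.145 and 0 RPKM with TNF and in control in cells labelled Mll1-/- and at 0.0666 and 0.0336 RPKM in wild type. Ccl6, next to Ccl9, was at 0.361 and 0.520 RPKM in cells labelled Mll1-/- and 0.124 and 0.452 RPKM in wild type. Ccl3 and Ccl4, which attract macrophages and T cells, had at most 1 read in any library. Ccl2, Ccl7 and Ccl9 thus lay above Ccl11 and Ccl6 beside them, which were at 0.520 RPKM or less, and Ccl12 and Ccl1 were not analysed here. On chromosome 8 Ccl17 lies beyond Ccl22 and Cx3cl1. Cx3cl1, the membrane-bound chemokine of monocytes, stood at 19.2 and 12.2 RPKM in cells labelled Mll1-/- and at 0.739 and 0.310 RPKM in wild type, whereas Ccl22 had 4 reads in wild type with TNF and 0 in the other libraries. Of 12 listed neighbours 2 were compared, Cx3cl1 and Ciapin1, the latter not a chemokine gene. With TNF 0 of these were higher and 0 lower by the size rule in each genotype. Among all compared genes 0.688% were higher in cells labelled Mll1-/- and 0.521% in wild type. In the same order the log2 TNF ratio was 0.63 and 0.61 for Cx3cl1 and 0.23 and -0.05 for Ciapin1. Their median was 0.43 in cells labelled Mll1-/- and 0.28 in wild type.

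**Figure D5:**
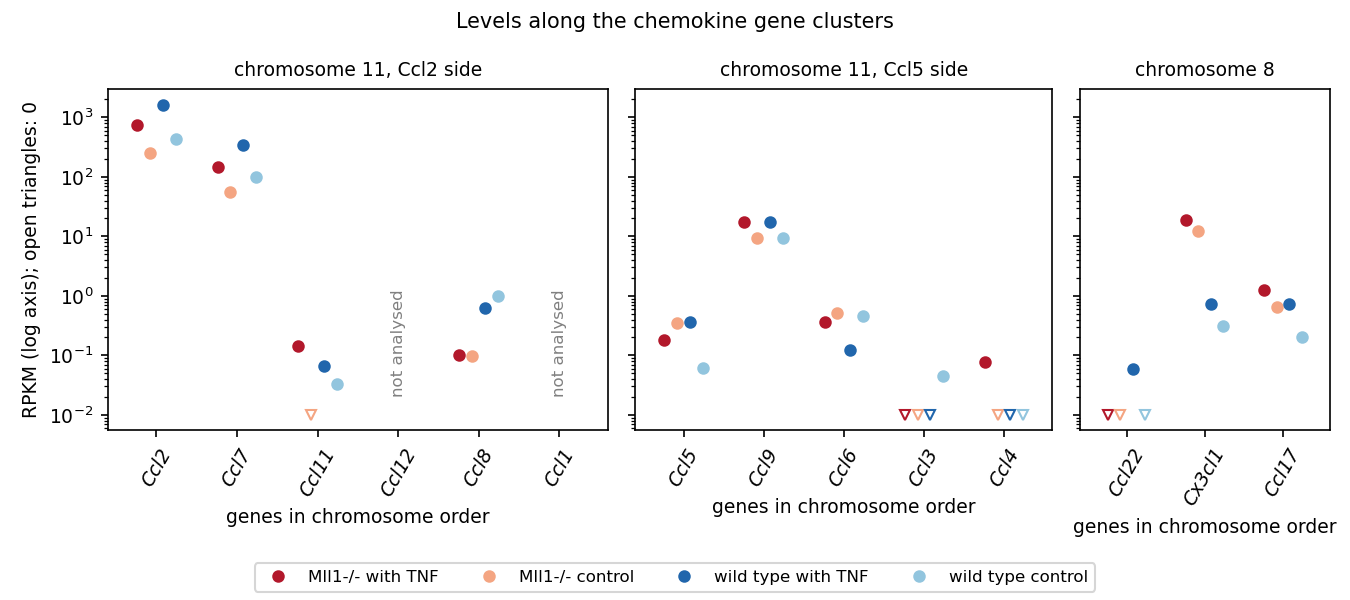
RPKM on a log axis of chemokine genes in chromosome order for each library, with open triangles for values of 0. Ccl2 and Ccl7 in the left panel and Ccl9 in the middle one stand above the other genes shown there in every library, with Ccl11 and Ccl6 at 0.520 RPKM or less.

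Receptors of these chemokines had few reads. Of the 5 receptors analysed here, Ccr1, Ccr2, Ccr3, Ccr4 and Ccr8, 0 reached 1 RPKM. Ccr2, the receptor of Ccl2 and Ccl7, was at 0.0289 and 0.125 RPKM with TNF and in control in cells labelled Mll1-/- and at 0.0199 and 0.0402 RPKM in wild type. The atypical receptors Ackr2 and Ackr4, which take up chemokines without signalling, lay at 0.123 RPKM or less. Of 15 other CC chemokines 10 had an entry and 2 were compared, of which 1 was higher with TNF and 0 lower in each genotype. The shares over all compared genes were 0.688% higher and 0.16% lower in cells labelled Mll1-/-, and 0.521% and 0.0556% in wild type. Ccl20, a ligand of Ccr6, was at 2.49 and 0.292 RPKM in cells labelled Mll1-/- and at 56.3 and 1.69 RPKM in wild type, with log2 TNF ratios of 1.92 and 4.70 on the log2(RPKM + 0.5) scale. That scale understates the ratio in cells labelled Mll1-/-, where the reads were 41 with TNF and 5 in control. Ccl25, a ligand of Ccr9, was at 7.59 and 5.99 RPKM in cells labelled Mll1-/- and at 3.65 and 4.204 RPKM in wild type, within the size rule for TNF. The median log2 TNF ratio of these 2 genes was 1.12 in cells labelled Mll1-/- and 2.26 in wild type, against 0.02 and -0.02 over all compared genes.

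Transcription factors known at CC chemokine promoters were mostly above the median of all genes in their TNF ratio. Of 16 compared factors 0 were higher and 0 lower by the size rule in cells labelled Mll1-/- (median log2 ratio 0.40), and 3 were higher and 0 lower in wild type (median 0.43). The shares over all compared genes with TNF were 0.688% higher and 0.16% lower in cells labelled Mll1-/-. In wild type they were 0.521% and 0.0556%. Relb, an NF-kB subunit, was at 14.8 and 7.68 RPKM with TNF and in control in cells labelled Mll1-/- (log2 0.90) and at 14.99 and 4.73 RPKM in wild type (log2 1.57). Nfkb2, the precursor of its partner, was at 74.7 and 45.7 RPKM in cells labelled Mll1-/- (log2 0.70) and at 62.9 and 25.5 RPKM in wild type (log2 1.29). The third was Cebpd (log2 0.85 and 1.09 in the same order), named after its values were seen. The lowest in wild type were Irf3 (log2 0.19 in cells labelled Mll1-/- and 0.06 in wild type) and Stat6 (0.03 and 0.07), the factor that transmits interleukin-4 signals. Between genotypes 1 of the 16 factors was higher and 1 lower by the size rule, both with TNF and in control. That is close to the share over all compared genes. Of these 6.71% were higher and 4.5% lower with TNF, and 7.11% were higher and 7.99% lower in control. Cebpd was higher, at 11.3 and 6.08 RPKM in cells labelled Mll1-/- against 4.096 and 1.66 RPKM in wild type. Stat6 was lower, at 15.7 and 15.4 RPKM in cells labelled Mll1-/- against 33.6 and 32.1 RPKM in wild type, with TNF first.

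Most listed genes that act on chemokine transcripts or proteins after transcription were within the size rule for TNF, as were most of all genes. Among all compared genes 0.688% were higher and 0.16% lower with TNF in cells labelled Mll1-/-. In wild type 0.521% were higher and 0.0556% lower. Of 8 mRNA decay factors 0 were past the size rule in cells labelled Mll1-/- (median log2 ratio 0.04), and 1 was higher and 0 lower in wild type (median 0.15). That gene was Zc3h12a, an RNase that cleaves inflammatory mRNAs, at 6.56 and 3.16 RPKM with TNF and in control in cells labelled Mll1-/- (log2 0.95) and 15.01 and 6.03 RPKM in wild type (log2 1.25). Zfp36l1 came next in wild type (log2 0.07 in cells labelled Mll1-/- and 0.66 in wild type), and Khsrp (-0.33 and -0.00) and Zfp36l2 (0.04 and 0.01) were lowest there. Of 6 compared proteases that trim chemokines, 1 was higher with TNF and 0 lower in each genotype (median 0.43 in cells labelled Mll1-/- and 0.10 in wild type). This was Mmp13, a collagenase, at 8.48 and 3.09 RPKM in cells labelled Mll1-/- and 1.14 and 0.135 RPKM in wild type. Mmp2, which is known to cut human CCL7 into an antagonist, was at 0.405 RPKM with TNF and 0.406 RPKM in control in cells labelled Mll1-/-, against 44.2 and 48.3 RPKM in wild type. Mmp3, another stromal protease, went the opposite way, at 42.5 and 24.98 RPKM in cells labelled Mll1-/- against 0.327 and 0.0388 RPKM in wild type. Mmp14, the membrane-type activator of Mmp2, was at 17.6 and 20.7 RPKM in cells labelled Mll1-/- against 36.8 and 41.1 RPKM in wild type. Heparan sulphate on its core proteins holds chemokines at the cell surface. Of 13 genes for heparan sulphate synthesis or modification or for its core proteins, 0 were higher and 0 lower with TNF in each genotype. Their median was -0.09 in cells labelled Mll1-/- and -0.03 in wild type. Ext1, a chain polymerase, had log2 TNF ratios of 0.21 in cells labelled Mll1-/- and 0.57 in wild type, and the core protein gene Sdc4 had 0.25 and 0.56. Ndst2, a sulphotransferase gene (-0.07 and -0.35), and Sdc1 (0.06 and -0.25) were lowest in wild type.

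The pattern of Ccl2 over the 4 libraries was nearest to that of Ccl7. Likeness was measured as the Euclidean distance between the 4 values of log2(RPKM + 0.5), each centred on the gene's mean, which describes 4 libraries and carries no test. The distance between Ccl2 and Ccl7 was 0.19, shorter than that from either gene to any of 9222 other named genes. Casp4, an inflammatory caspase, was next for both (0.29 from Ccl2 and 0.32 from Ccl7), at 4.92 and 1.81 RPKM with TNF and in control in cells labelled Mll1-/- and 12.1 and 2.52 RPKM in wild type. Zc3h12a (0.64 from Ccl2 and 0.49 from Ccl7) and the cytokine gene Il6 (0.66 from each) followed. For Ccl9 the nearest genes were Sod2, the mitochondrial superoxide dismutase (0.13), the cell death gene Bcl2l11 (0.21) and the AP-1 subunit Junb (0.22). Sod2 was at 29.2 and 16.9 RPKM with TNF and in control in cells labelled Mll1-/- and at 28.4 and 15.1 RPKM in wild type. For Ccl17, whose values rest on 3 to 13 reads a library, they were Ttc39c (0.07), Pnrc1 (0.07) and Rnf19b (0.12). Ccl9 lay 1.31 from Ccl2, at rank 43 counted from Ccl2. Counted from Ccl9, Ccl2 was at rank 8137 against the 9222 other named genes.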

How the data were processed

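RNA from 4 pools of mouse embryonic fibroblasts was sequenced, 1 library a group. The submitters' processing notes name TopHat and DESeq without a version or role, and no source used here names the build or read counter. RPKM per transcript entry is what the authors deposited (27344 entries, per the file headers). Accessions were matched to symbols in RefSeq (20849) and GENCODE M21 (102); 6393 entries stayed unnamed. The entry with the highest mean RPKM stood for a symbol.

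Whole reads, within 0.0001, were recovered from the RPKM with the entry lengths and library totals that gave them. The recovery of reads, the ratios and their intervals were also tried on simulated data, with library totals and transcript lengths supplied. Recovery of the totals themselves was not tried there. Ratios of reads carry 95% Clopper-Pearson intervals, levels Poisson intervals, and differences of log2 ratios normal intervals, all of counting error only. Without molecular identifiers, reads need not be separate molecules. Genes with 1 RPKM in at least 1 library (14386) were compared on log2(RPKM + 0.5), and those past 1 in size were counted. Python 3.11.15, numpy 2.4.6, scipy 1.17.1 and pandas 2.3.3 were used.

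Members, gene lists and motifs were chosen with earlier results of these data known. All 6 members are described, with the 3 named genes of at least 3 RPKM nearest in pattern to each compared member, and up to 4 genes a list (the 2 highest and 2 lowest wild-type TNF ratios); others named were chosen after their values were seen. Small RNAs, predicted genes and entries with no symbol were passed over when choosing genes to name, but stayed among the genes compared. Alternatives changed the pseudocount, filter, scaling, length trend, entry choice, or used reads.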

Additional observations from a re-analysis of the deposited data

Results flagged for a closer look

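The TNF ratios of Ccl5 pointed in opposite directions in the 2 genotypes, with 2 and 4 reads with TNF and in control in cells labelled Mll1-/- and 6 and 1 reads in wild type. On the log2(RPKM + 0.5) scale the difference, Mll1-/- minus wild type, was -0.94. It was not tested, since each group is 1 library, and the counting interval of the difference from reads ran from -7.43 to 0.40. Ccl8 also had ratios on opposite sides of 1, on 1 and 1 reads in cells labelled Mll1-/- and 9 and 14 reads in wild type, with a difference of 0.41. That difference was not tested either, and its counting interval from reads ran from -3.47 to 4.88.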

How the results depend on the processing

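For the 4 compared chemokines, 135 of 160 values under other settings moved by no more than the middle-to-edge distance of their log2 counting interval. The other 25 moved by more, and 0 changed the direction of a value past the size rule. Most of the 25 were values of Ccl2 and Ccl7, whose intervals are narrow, and the rest were of Ccl9. The wide intervals of Ccl17 left none of its values among them. Summing the entries of a symbol, counted in the 160, could not move members with 1 entry. Ccl2 and Ccl7 were past the rule with TNF in both genotypes, and lower in cells labelled Mll1-/- with TNF, under all settings tried. Ccl17 passed it as well for TNF in wild type with a pseudocount of 0.1 and from reads. In control solution 1 member, Ccl17, was higher in cells labelled Mll1-/- with a pseudocount of 0.1, from reads, and with the length trend removed, and 1 member, Ccl8, was lower with no filter. Scaling without the 20 genes of highest mean RPKM shifts the median of all genes by -0.16 for TNF in cells labelled Mll1-/-, -0.18 for the difference of TNF ratios, 0.11 between genotypes with TNF and 0.29 in control solution, the last also by 0.10 with upper-quartile scaling.

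Counts of all genes moved more. In cells labelled Mll1-/- TNF gave 99 higher and 23 lower; these were 158 and 65 with a pseudocount of 0.1, 183 and 68 from reads, 62 and 54 with the length trend removed, and 73 and 38 with the 20 genes left out, with 11 lower at a pseudocount of 1 and 5 lower with a filter of 3 RPKM. In wild type 75 higher and 8 lower became 126 and 30 with a pseudocount of 0.1, and 148 and 59 from reads, with 5 lower at a pseudocount of 1 and 2 lower with the stricter filter. In control solution 1023 higher and 1150 lower between genotypes became 1524 and 623 with the 20 genes left out and 1183 and 708 without the length trend. For the difference 109 higher and 61 lower became 197 and 113 with a pseudocount of 0.1, 220 and 138 from reads, 62 and 103 with the 20 genes left out, and 36 and 145 without the length trend, with 30 lower at the stricter filter; the causes were not tested. No paired analysis was possible because each group is 1 library. Depth limits Ccl5, Ccl8 and Ccl17, with 14 reads or fewer a library.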
